A study of Arabidopsis thaliana with 16 samples.

Results

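The transcripts described here are those of the mitochondrial genome of Arabidopsis thaliana, read by 92 probe sets in leaves. They are all rows of the deposited value table whose locus code begins with ATMG, out of 27826 probe sets, and the rule uses only the code. RNA came from leaves of 6-week-old soil-grown plants kept in short days of 8.5 h light (22 °C in the light, 18 °C in the dark), without treatment. Each of 4 genotypes was hybridised to 4 Affymetrix arrays, 16 in all. They were the wild type (WT), a line called amiNAA10 in which an artificial microRNA lowers NAA10, and a pair of lines with a T-DNA insertion in the first or the second exon of HYPK (the exon 1 line and the exon 2 line). The sources used here do not give the accession of the wild type, the promoter of the microRNA or the number of independent lines per construct. Nothing in the labels tells whether the 4 samples per genotype came from different plants, so every p-value reflects the scatter of these arrays, part of which may be technical.

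Plant mitochondria keep a genome of their own. It encodes subunits of respiratory complexes I, III and IV and of ATP synthase, proteins for cytochrome c maturation, some ribosomal proteins, ribosomal RNAs and transfer RNAs, while most mitochondrial proteins are made from nuclear genes. Its transcripts are trimmed, spliced and edited by nuclear-encoded proteins, and in plants a poly(A) tail usually marks such a transcript for decay. NAA10 is the catalytic subunit of NatA, the complex that acetylates the amino terminus of many proteins during their synthesis, and HYPK is a small protein that binds NatA. The reference gene table (assembly TAIR10.1) lists 32 symbols of protein-coding genes on the mitochondrial chromosome, of which 9 are nad genes of complex I, 1 is cob, 3 are cox genes, 5 are atp genes, 5 are ccm genes and 7 encode ribosomal proteins. It does not pair any symbol with an ATMG code: 0 of 92 codes matched. The loci are therefore given by code, without gene names or roles, and ordered by how they behaved on the arrays.

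All values are log2 expression values from robust multi-array averaging (RMA), and all differences are on that log2 scale. Differences were tested with limma over all 27826 probe sets, and a probe set is called higher or lower where its Benjamini-Hochberg adjusted p was under 0.05. Averaged over the 16 arrays, the 92 probe sets ran from 1.66 to 12.66 with a median of 7.35. The median of all probe sets was 3.18, and 83 of the 92 lay above it. Signals of different probe sets depend on their probes and do not rank transcript amounts.

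The whole series was checked first. NAA10 lay between 4.86 and 5.06 in the WT arrays and between 2.64 and 2.97 in the amiNAA10 arrays. HYPK lay between 5.55 and 5.75 in WT and between 4.53 and 4.87 in the exon 1 line, but arrays labelled exon 2 ran from 5.04 to 5.66 and overlapped WT, so HYPK does not check that label. In amiNAA10 HYPK lay between 5.21 and 5.48, below all WT arrays and within the range of the exon 2 arrays. On the first principal component, with 46.4% of the variance, replicate 4 of the exon 2 line lay at -44.34 while its other arrays lay between -1.87 and 15.54. Leaf markers were bright in all genotypes, with means per array between 8.79 and 9.66, and all flower and pollen markers lay in the dimmest 30% of signals in WT. The 6 vascular markers averaged between 7.25 and 7.35 in the WT arrays, between 6.14 and 6.46 in amiNAA10, between 6.68 and 6.83 in the exon 1 line and between 6.74 and 6.89 in the exon 2 line. In amiNAA10 all 6 vascular markers and 5 of 6 leaf markers were called lower, where 15.4% of all probe sets were called lower. In each HYPK line 3 of 6 vascular markers were called lower, and of the leaf markers 1 in the exon 1 line and 0 in the exon 2 line. Of all probe sets 9.89% and 6.82% were called lower in these lines. Of 5 root markers 1 was called higher in amiNAA10, PYK10, a root beta-glucosidase (difference 1.86, SE 0.42, adjusted p = 0.00274), and 4 of 5 stayed in the dimmest 30%. The part of these shifts in the mitochondrial values was not tested. In bulk leaf RNA a change in the share of a cell type and a change in RNA per cell cannot be told apart.

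Many mitochondrial-genome probe sets carried the same signal as a nuclear one. The Columbia nuclear genome holds a large copy of the mitochondrial genome on chromosome 2, known from sequencing. Of the 92, 37 (40.2%) had a partner elsewhere in the table whose value differed by less than 0.05 on the log2 scale in each of the 16 arrays, against 174 (0.625%) of all probe sets. For 33 of them the partner was a locus on chromosome 2 with a code beginning AT2G07. The reference annotates 9 of these partner loci as transfer RNA genes: serine for ATMG00230, methionine for ATMG00250, ATMG00460 and ATMG01340, proline for ATMG00350, asparagine for ATMG00380, glutamate for ATMG00800, tryptophan for ATMG00930 and aspartate for ATMG01070. The other 24 chromosome 2 partners are annotated as pseudogenes or protein-coding genes. ATMG00930 also matched the plastid locus ATCG00610 to within 0.00195. A further 4 matched only within the mitochondrial genome, as the pairs ATMG00080 with ATMG00090 and ATMG00170 with ATMG00620, and each pair is 1 measurement. The 55 others had no partner. The nearest of them to the limit was ATMG00570, which differed from AT2G07716 by up to 0.0762. Values of the 33 cannot be assigned to the mitochondrial or the nuclear copy. The same may hold for members without a partner whose nearest probe set was a chromosome 2 locus. ATMG00290, ATMG00520 and ATMG00990 differed from AT2G07734, AT2G07712 and AT2G07751 by up to 0.109, 0.139 and 0.125. ATMG00490, ATMG00500 and ATMG00960 differed from AT2G07687, AT2G07725 and AT2G07811 by up to 0.318, 0.248 and 0.332. ATMG00580 and ATMG01270 are further examples. The limit of 0.05 does not show that the 55 are free of nuclear signal. Of the 100 loci from AT2G07660 to AT2G07840, 37 were called higher and 6 lower in amiNAA10, close to the counts for the mitochondrial genome below. The 33 partner loci are among these 100, so the likeness is in part the same signal counted again.

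The first question the design asks is how the transcripts of the mitochondrial genome differ when NAA10 is lowered. In amiNAA10 36 of 92 (39.1%) were called higher than in WT and 6 lower, while 15.4% of all probe sets were called higher and 15.4% lower. The median difference of the 92 was 0.26, against -0.02 over all probe sets. Rises ran from 0.29 to 1.21 and falls from -0.43 to -0.82. Bright probe sets are called more often in these data, so the 92 were split at their median signal into 46 brighter and 46 dimmer members. Of the brighter, 30 of 46 (65.2%) were called higher and 2 lower. Among all 1950 probe sets at or above that signal, 31.8% were called higher and 28.8% lower. Of the dimmer, 6 of 46 were called higher and 4 lower, beside 14.1% and 14.4% of all probe sets below that signal. Without replicate 4 of amiNAA10 the brighter members had 31 higher and 2 lower.

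Averaged over the 46 brighter members, the 4 WT arrays lay at 9.63, 9.67, 9.70 and 9.74, and the amiNAA10 arrays at 10.03, 10.05, 10.05 and 10.07. Arrays of the exon 1 line lay between 9.85 and 9.96 and those of the exon 2 line between 9.85 and 9.90. No array of the 3 lines overlapped WT, and amiNAA10 lay above both HYPK lines. The dimmer members overlapped in all genotypes, with 4.33 to 4.66 in WT, 4.44 to 4.62 in amiNAA10, 4.21 to 4.41 in the exon 1 line and 4.26 to 4.50 in the exon 2 line. Of the 14 loci of the plastid genome, the other organelle genome of the leaf, 1 was called higher and 3 lower in amiNAA10. Of all probe sets 15.4% were called in each direction there. The plastid mean per array was between 11.78 and 11.83 in WT and between 11.65 and 11.72 in amiNAA10. It was between 11.59 and 11.68 in the exon 1 line and between 11.60 and 11.73 in the exon 2 line, also below WT.

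**Figure D1:**
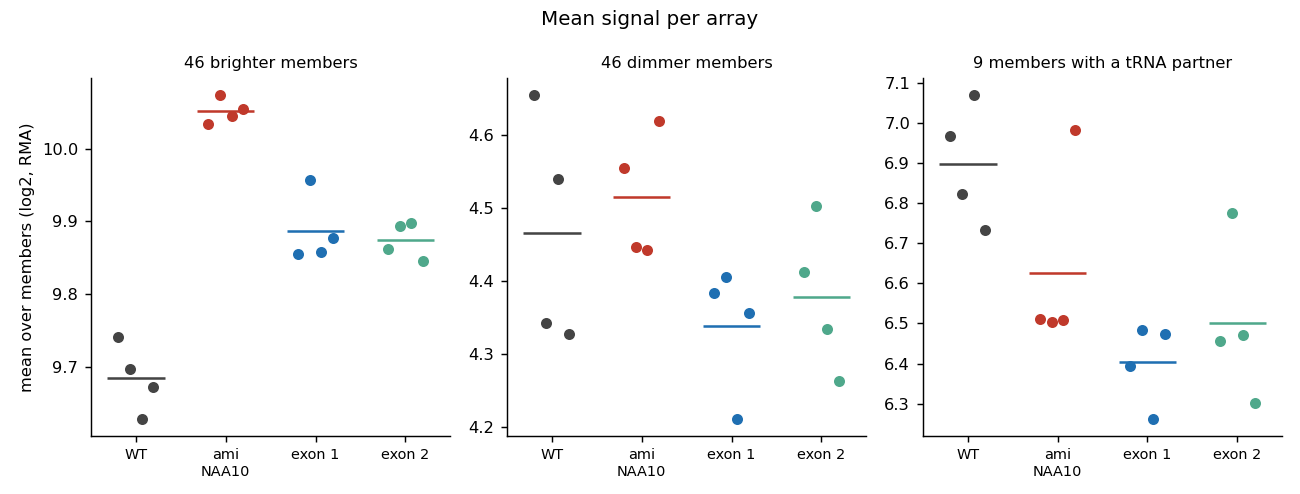
Mean log2 RMA signal over the 46 brighter members, the 46 dimmer members and the 9 with a transfer RNA partner, with 1 point per array and a line at the mean of 4 arrays. For the brighter members the WT arrays lie between 9.63 and 9.74 and the amiNAA10 arrays between 10.03 and 10.07, while the dimmer members overlap between genotypes.

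The HYPK lines were compared with the same 4 WT arrays, so their values stand side by side with those of amiNAA10 and are not independent of them. In the exon 1 line 26 of 92 (28.3%) were called higher and 7 lower, where 9.69% of all probe sets were called higher and 9.89% lower. The exon 2 line had 24 (26.1%) higher and 4 lower, where 7.03% of all probe sets were higher and 6.82% lower. Median differences of the 92 were 0.06 and 0.09, against -0.02 and -0.01 over all probe sets. Most of the calls were again among the brighter members. In the exon 1 line 24 of 46 were higher and 3 lower, beside 22.7% and 15.6% of all probe sets of that signal, and in the exon 2 line 21 were higher and 1 lower, beside 18.5% and 11.2%. Of the 46 dimmer members 2 were higher and 4 lower in the exon 1 line, beside 8.71% and 9.45% of all dimmer probe sets, and 3 were higher and 3 lower in the exon 2 line, beside 6.16% and 6.49%. In a fit of only the exon 2 and WT arrays the exon 2 line had 13 higher and 2 lower, 15 calls in place of 28, and without its replicate 4 it had 18 higher and 2 lower. With both lines averaged, 26 were called higher and 10 lower, against 11.2% and 11.5% of all probe sets.

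**Figure D2:**
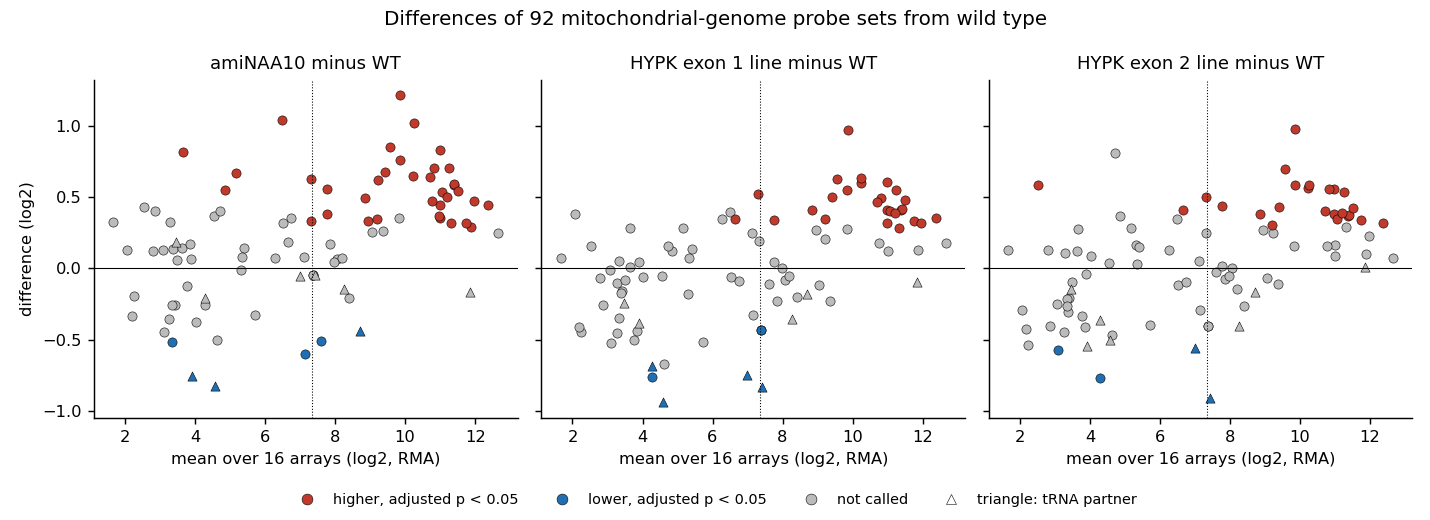
Difference of each of the 92 probe sets from WT (log2, vertical axis) against its mean over the 16 arrays (log2 RMA, horizontal axis) in the 3 lines; triangles are the 9 with a transfer RNA partner, red and blue are those called higher or lower, and the dotted line is the median of 7.35. Points called higher lie mostly right of the dotted line, and no triangle is called higher.

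A set of 22 loci was called higher in amiNAA10, in the exon 1 line and in the exon 2 line, 23.9% of the 92, where 5.34% of all probe sets were called higher in all 3. The comparisons share the WT arrays, so joint calls are not independent. All but ATMG00830 were among the brighter members, of which the other 21 make up 45.7%, beside 16.1% of all probe sets of that signal. Of these 22, 12 had no partner, 8 had a chromosome 2 partner that is not a transfer RNA gene and 2 were the pair ATMG00080 and ATMG00090. Among the 12, the nearest probe set was a chromosome 2 locus for ATMG00290, ATMG00490, ATMG00500, ATMG00520, ATMG00570, ATMG00580 and ATMG00960. A nuclear share in their signal is therefore possible. The differences of the 22 ran from 0.32 to 1.21 in amiNAA10, from 0.33 to 0.97 in the exon 1 line and from 0.31 to 0.98 in the exon 2 line. In 20 of the 22 the difference was larger in amiNAA10 than in either HYPK line. When both HYPK lines were tested against amiNAA10, however, 1 of the 22 was called, ATMG00520.

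ATMG00290 rose most in all 3 lines. Its WT arrays read 9.28, 9.11, 8.88 and 9.01, and its amiNAA10 arrays 10.27, 10.36, 10.39 and 10.12. The exon 1 line read 10.10, 10.03, 9.98 and 10.04, and the exon 2 line 10.05, 10.06, 10.10 and 9.97. Every array of the lines was above every WT array, and amiNAA10 did not overlap the HYPK lines. It was 2.32-fold higher in amiNAA10 (difference 1.21, SE 0.10, adjusted p = 8.82e-07), 1.96-fold in the exon 1 line (SE 0.10, adjusted p = 1.94e-05) and 1.97-fold in the exon 2 line (SE 0.10, adjusted p = 2.93e-05). Against amiNAA10 both HYPK lines together differed by -0.24 (SE 0.09, adjusted p = 0.0955), which did not pass.

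ATMG00520 stood at 9.79, 9.73, 9.62 and 9.60 in WT and at 10.75, 10.81, 10.73 and 10.51 in amiNAA10. In the exon 1 line it was at 10.19, 10.49, 10.24 and 10.34, and in the exon 2 line at 10.30, 10.29, 10.29 and 10.19. The genotypes formed 3 steps without overlap, WT lowest, the HYPK lines between and amiNAA10 highest. It was 2.02-fold higher in amiNAA10 (SE 0.10 on the log2 scale, adjusted p = 3.29e-06), 1.55-fold in the exon 1 line (adjusted p = 0.000514) and higher by 0.59 on the log2 scale in the exon 2 line (adjusted p = 0.00155). The HYPK lines were lower than amiNAA10 by -0.41 (SE 0.09, adjusted p = 0.00758).

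ATMG00960 read 9.14, 9.14, 8.89 and 8.90 in WT and 9.88, 9.92, 9.83 and 9.85 in amiNAA10. Its exon 1 arrays were at 9.66, 9.66, 9.63 and 9.65, and its exon 2 arrays at 9.68, 9.60, 9.83 and 9.74. All 12 arrays of the lines were above WT. The differences were 0.85 in amiNAA10 (SE 0.09, adjusted p = 8.90e-06), 0.63 in the exon 1 line (adjusted p = 0.000328) and 0.69 in the exon 2 line (adjusted p = 0.000256).

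Among the others of this set, ATMG00285, whose signal matched the pseudogene AT2G07733, was at 10.49 ± 0.10 (SD, n = 4) in WT and at 11.32 ± 0.07 (SD, n = 4) in amiNAA10. Its exon 1 and exon 2 means were 11.09 ± 0.08 and 11.04 ± 0.16 (SD, n = 4 each). ATMG00490, without a partner but nearest to AT2G07687, was at 9.37 ± 0.23 in WT, 10.13 ± 0.19 in amiNAA10, 9.93 ± 0.06 in the exon 1 line and 9.96 ± 0.13 in the exon 2 line (SD, n = 4 each). Both passed in all 3 lines, with adjusted p = 1.85e-05 and 0.000235 in amiNAA10 by limma. The further differences in amiNAA10 and the exon 1 and exon 2 lines were 0.70, 0.55 and 0.54 for ATMG01320, and 0.70, 0.49 and 0.56 for ATMG00500. They were 0.67, 0.50 and 0.43 for ATMG00980, 0.65, 0.60 and 0.56 for ATMG00516, and 0.63, 0.52 and 0.50 for ATMG00830. At the lower end, ATMG00580 differed by 0.32, 0.33 and 0.34, nearly the same in the 3 lines.

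**Figure D3:**
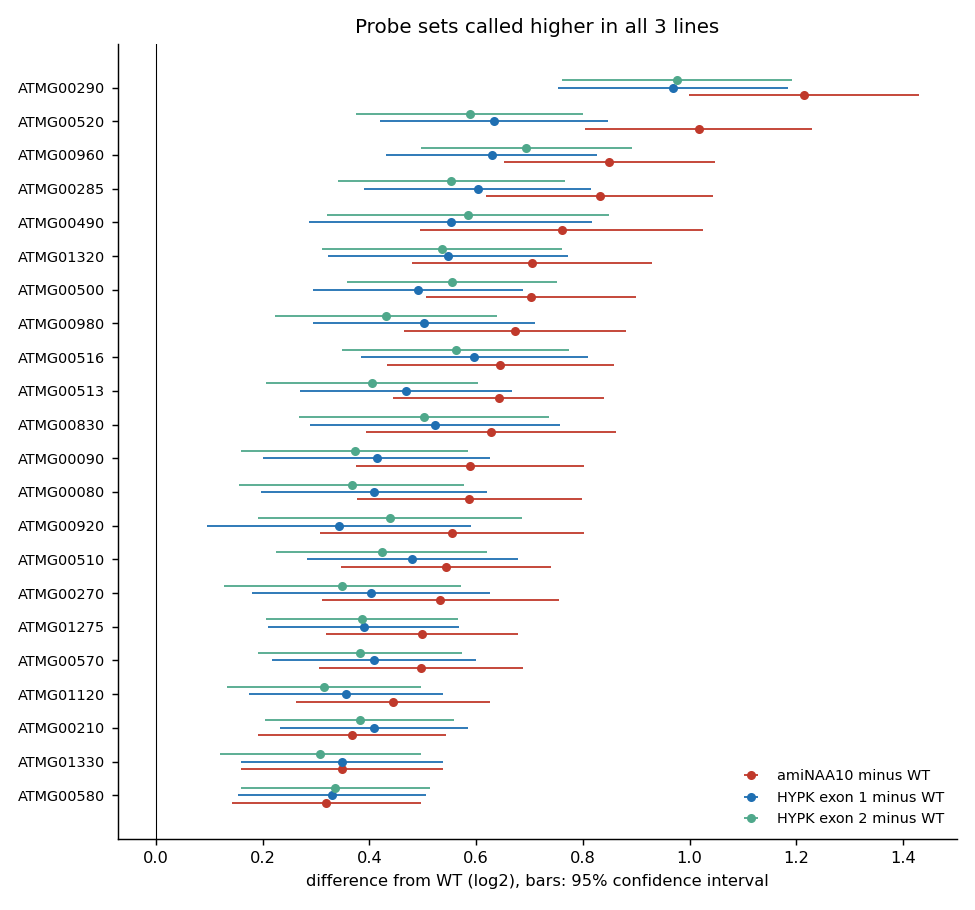
Difference from WT (log2, horizontal axis) with its 95% confidence interval for the 22 loci called higher in amiNAA10 (red), the exon 1 line (blue) and the exon 2 line (green). ATMG00290 lies farthest from 0 in each line, and the intervals of amiNAA10 overlap those of the HYPK lines for most loci; the 3 comparisons share the WT arrays.

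Other loci were called higher in amiNAA10 and in neither HYPK line, 11 of the 92 (11.96%), where the same held for 7.04% of all probe sets; fewer calls in the HYPK lines do not show that these loci differ between the lines. The largest was ATMG00840, a dimmer member, at 6.32, 6.19, 5.94 and 5.71 in WT and at 7.14, 7.17, 7.18 and 6.83 in amiNAA10. The exon 1 line read 6.55, 6.34, 6.43 and 6.42, and the exon 2 line 6.77, 5.92, 6.59 and 6.27. Its amiNAA10 arrays lay above all others, and the exon 2 arrays overlapped WT. It was 2.05-fold higher in amiNAA10 (difference 1.04, SE 0.17, adjusted p = 0.000213) and differed from WT by 0.39 and 0.35 in the exon 1 and exon 2 lines (adjusted p = 0.116 and 0.194). The HYPK lines were lower than amiNAA10 by -0.67 (SE 0.15, adjusted p = 0.0084), so here the difference between the lines itself passed. It also passed for others of the 11, among them ATMG01000 (-0.39, adjusted p = 0.021), ATMG00610 (-0.35, adjusted p = 0.0258) and ATMG00180 (-0.25). The calls of ATMG01000 and ATMG00610 ended without amiNAA10 replicate 2 or replicate 3, and that of ATMG00610 also without replicate 4. ATMG01180, a dim member of the 11, was at 3.31 ± 0.37 in WT and 4.13 ± 0.50 in amiNAA10 (SD, n = 4 each; adjusted p = 0.0278). Its call ended without amiNAA10 replicate 1, amiNAA10 replicate 2 or WT replicate 3. In the exon 2 line ATMG00820 differed from WT by 0.59 (adjusted p = 0.0476), a call that was lost under 16 of 23 alternative settings.

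**Figure D4:**
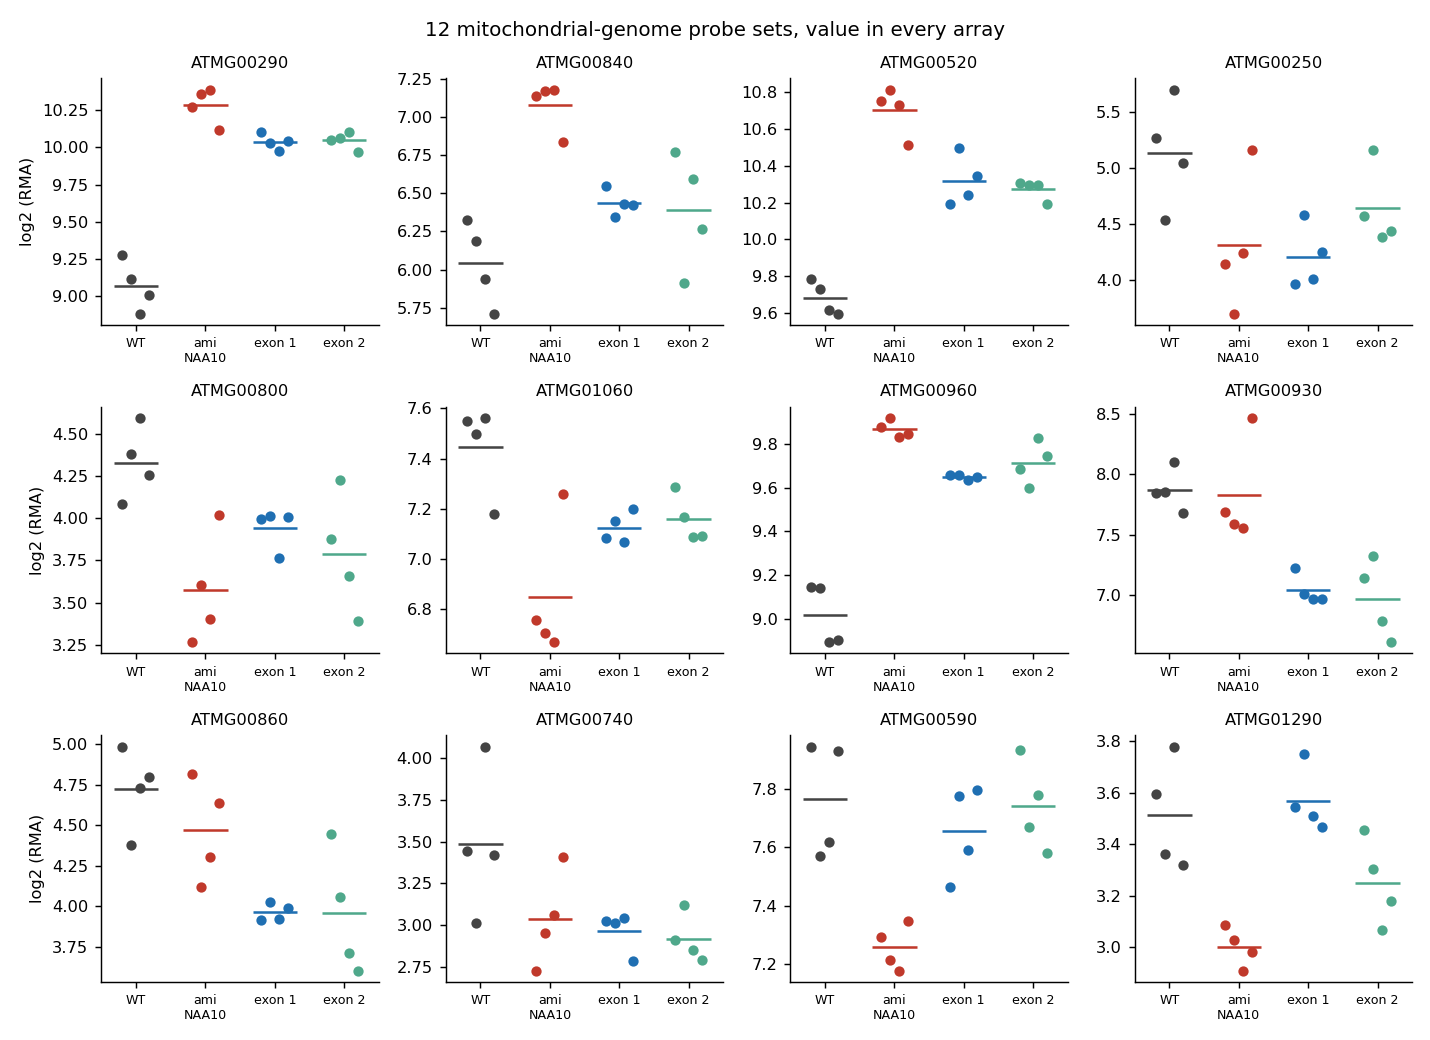
Log2 RMA value in each of the 16 arrays for 12 loci taken from the 3 largest called rises and falls of each comparison. Each panel has 1 point per array and a line at the mean of the 4 arrays of a genotype. Vertical axes differ between panels. ATMG00290, ATMG00520 and ATMG00960 lie above WT in every array of the 3 lines, and ATMG00930 is lower in all arrays of the HYPK lines than in WT and amiNAA10, where 1 amiNAA10 array lies at 8.47.

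The loci with a transfer RNA partner were called lower where they were called at all. Transfer RNAs carry amino acids to the ribosome, and plant mitochondria use both their own and imported nuclear ones. The grouping was made after the values were seen and carries no test. Of the 9, none was called higher in any line, 3 were called lower in amiNAA10, 4 in the exon 1 line, 2 in the exon 2 line and 5 with both HYPK lines averaged, where 15.4%, 9.89%, 6.82% and 11.5% of all probe sets were called lower. Without replicate 4 of the exon 2 line these last counts were 1 and 3. Median differences of the 9 were -0.17 in amiNAA10, -0.38 in the exon 1 line and -0.40 in the exon 2 line. Their mean per array was 6.73 to 7.07 in WT, 6.26 to 6.48 in the exon 1 line and 6.30 to 6.78 in the exon 2 line. In amiNAA10 it was 6.50, 6.51 and 6.51 in replicates 2, 1 and 3 and 6.98 in replicate 4. The 9 leave out ATMG00190, ATMG00360, ATMG00470 and ATMG00950, whose nearest probe set was a chromosome 2 transfer RNA locus outside the limit for partners. Means of ATMG00360 in WT, amiNAA10, the exon 1 line and the exon 2 line were 8.06, 8.13, 7.98 and 8.06. ATMG00360 thus stayed near WT. In the same order ATMG00470 had 3.46, 3.60, 3.29 and 3.15. ATMG00190 had 5.03, 4.53, 4.36 and 4.56, and ATMG00950 had 6.03, 5.70, 5.51 and 5.64, with WT SDs of 0.48 and 0.38. Of 48 nuclear loci annotated as transfer RNA genes outside AT2G07660 to AT2G07840, 10 were called lower and 1 higher in amiNAA10, and 12 lower and 1 higher with both HYPK lines averaged. The 20.8% called lower in amiNAA10 is near the 15.4% of all probe sets, and 25% with both HYPK lines averaged stands beside 11.5%.

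ATMG00930, the locus with a tryptophan transfer RNA partner, was at 7.84, 7.85, 8.10 and 7.68 in WT and at 7.69, 7.59, 7.56 and 8.47 in amiNAA10. The exon 1 arrays were at 7.22, 7.01, 6.97 and 6.97, and the exon 2 arrays at 7.14, 7.32, 6.78 and 6.61. All 8 arrays of the HYPK lines lay below all arrays of WT and of amiNAA10, and amiNAA10 overlapped WT. It fell in the exon 1 line by 0.83 (SE 0.19, adjusted p = 0.00617) and in the exon 2 line by 0.91 (SE 0.19, adjusted p = 0.00588). The HYPK lines were lower than amiNAA10 by -0.82 (SE 0.17, adjusted p = 0.00513). Its signal is also that of the plastid locus ATCG00610, so mitochondrial, plastid and nuclear copies cannot be told apart. ATMG01340, a methionine partner locus, did likewise, with 7.33 ± 0.26 in WT, 7.28 ± 0.12 in amiNAA10, 6.58 ± 0.22 in the exon 1 line and 6.77 ± 0.24 in the exon 2 line (SD, n = 4 each). It was lower in the exon 1 line (-0.75, adjusted p = 0.00274), in the exon 2 line (-0.56, adjusted p = 0.0223) and against amiNAA10 with both HYPK lines averaged (-0.60, adjusted p = 0.00833). The exon 2 call of ATMG01340 ended without replicate 3 or replicate 4 of that line, without WT replicate 1 or 3, and in the fit of only the arrays compared.

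ATMG00800, the glutamate partner locus, read 4.08, 4.38, 4.59 and 4.25 in WT and 3.27, 3.60, 3.40 and 4.02 in amiNAA10. Its exon 1 arrays read 4.00, 4.01, 3.76 and 4.01, and the exon 2 line 3.88, 4.23, 3.66 and 3.39. All amiNAA10 and exon 1 arrays were below WT, while 1 exon 2 array overlapped it. It fell in amiNAA10 by 0.76 (SE 0.18, adjusted p = 0.00412), and its difference was -0.38 in the exon 1 line (adjusted p = 0.153) and -0.54 in the exon 2 line (adjusted p = 0.0561).

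ATMG00250, a methionine partner locus, was scattered within genotypes, at 5.27, 4.54, 5.70 and 5.05 in WT and at 4.15, 3.70, 4.24 and 5.17 in amiNAA10. Its exon 1 arrays were at 3.97, 4.58, 4.01 and 4.25, and its exon 2 arrays at 4.58, 5.16, 4.39 and 4.44. Every line overlapped WT. It was lower in amiNAA10 by -0.82 (SE 0.28, adjusted p = 0.0352) and in the exon 1 line by -0.94 (SE 0.28, adjusted p = 0.0277), calls that were lost under 8 and 4 of 23 alternative settings. ATMG01070, the aspartate partner locus, was lower in amiNAA10 (8.47 ± 0.28 against 8.90 ± 0.10 in WT, SD, n = 4 each; adjusted p = 0.011). ATMG00230, the serine partner locus, was lower in the exon 1 line (3.91 ± 0.22 against 4.60 ± 0.30; adjusted p = 0.013). The loci with proline, asparagine and the remaining methionine partner passed in none of the lines.

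A few loci without a transfer RNA partner were also lower. ATMG00860 was at 4.98, 4.38, 4.73 and 4.80 in WT and at 4.81, 4.12, 4.31 and 4.63 in amiNAA10. The exon 1 line was at 3.92, 4.02, 3.92 and 3.99, and the exon 2 line at 4.45, 4.06, 3.71 and 3.60. The exon 1 arrays lay below all WT arrays, 1 exon 2 array overlapped WT, and amiNAA10 overlapped it. It fell in the exon 1 line by 0.76 (SE 0.18, adjusted p = 0.00854) and in the exon 2 line by 0.77 (SE 0.18, adjusted p = 0.012), and against amiNAA10 the HYPK lines differed by -0.51 (adjusted p = 0.0527).

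ATMG01060 was at 7.55, 7.497, 7.56 and 7.18 in WT and at 6.75, 6.70, 6.67 and 7.26 in amiNAA10. In the exon 1 line it was at 7.08, 7.15, 7.07 and 7.20, and in the exon 2 line at 7.29, 7.17, 7.09 and 7.09. Replicate 4 of amiNAA10 overlapped WT and its other arrays lay below all others. It fell in amiNAA10 by 0.60 (SE 0.13, adjusted p = 0.00212), with differences of -0.32 and -0.29 in the exon 1 and exon 2 lines (adjusted p = 0.0953 and 0.158).

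ATMG01290 was called lower in amiNAA10 and in neither HYPK line, at 3.09, 3.03, 2.91 and 2.98 against 3.60, 3.36, 3.78 and 3.32 in WT. The exon 1 line read 3.54, 3.75, 3.51 and 3.47, and the exon 2 line 3.46, 3.30, 3.07 and 3.18. Its amiNAA10 arrays did not overlap WT or the exon 1 line, and 1 exon 2 array lay among them. ATMG00590, whose partner is the protein-coding locus AT2G07718, was at 7.29, 7.22, 7.18 and 7.35 in amiNAA10 and at 7.94, 7.57, 7.62 and 7.93 in WT. Its exon 1 arrays were at 7.46, 7.78, 7.59 and 7.80, and its exon 2 arrays at 7.93, 7.67, 7.78 and 7.58. The amiNAA10 arrays lay below all others. Both fell in amiNAA10 by 0.51 (SE 0.12 each, adjusted p = 0.00375 for ATMG01290 and 0.00394 for ATMG00590). Both were higher in the HYPK lines than in amiNAA10, by 0.41 for ATMG01290 (adjusted p = 0.0204) and by 0.44 for ATMG00590 (adjusted p = 0.0132). Those last calls ended without amiNAA10 replicate 2 or replicate 3.

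ATMG00740, a dim locus, was at 3.44, 3.01, 4.07 and 3.42 in WT and at 2.73, 2.95, 3.06 and 3.41 in amiNAA10. Its exon 1 arrays read 3.02, 3.01, 3.04 and 2.79, and the exon 2 line 2.91, 3.12, 2.85 and 2.79. All lines overlapped WT. In the exon 2 line it was lower by -0.57 (SE 0.18, adjusted p = 0.0489), a call lost under 16 of 23 alternative settings. The identical pair ATMG00170 and ATMG00620 was lower in the exon 1 line (-0.43, adjusted p = 0.0303) and missed the threshold in the exon 2 line (-0.40, adjusted p = 0.0512 for ATMG00170). The exon 1 call of the pair was lost under 7 of 23 alternative settings, among them the replicate block.

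The HYPK lines were then set against each other and against amiNAA10. Between the exon 1 and exon 2 lines limma called 0 of 92, where it called 0.00719% of all probe sets, and 3 of the 92 had an unadjusted p under 0.05. With the trended, robust form of limma the count was also 0. Differences ran from -0.65 to 0.67, and the 95% interval of a difference reached a median of 0.28 to either side. For the 22 loci higher in all lines these intervals lay within -0.34 and 0.28. Against amiNAA10 the averaged HYPK lines were lower for 14 of the 92 and higher for 2, where 4.90% of all probe sets were lower and 5.34% higher. Of the 46 brighter members 11 (23.9%) were lower and 1 higher, beside 11.4% and 15.8% of all probe sets of that signal. Of the 46 dimmer members 3 (6.52%) were lower and 1 higher, beside 4.41% and 4.56% of all dimmer probe sets. The median difference of the 92 was -0.16, against 0.01 over all probe sets, and 75 of the 92 differences were below 0. The largest were those of ATMG00930 and ATMG00840 above, followed by ATMG01340, ATMG00370 (-0.43, adjusted p = 0.0151), ATMG00520 and ATMG01100 (-0.40, adjusted p = 0.0326). This count depended on single arrays: without amiNAA10 replicate 3 it was 4 (ATMG00520, ATMG00840, ATMG00930 and ATMG01340), and without amiNAA10 replicate 2 it was 7. The call of ATMG01100 was lost under 8 of 23 alternative settings.

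Across the single lines, 41 of the 92 were called in none and no locus was called in opposite directions. A set of 3 was lower in both HYPK lines separately: ATMG00860, ATMG00930 and ATMG01340. No locus was lower in all 3 lines. Of all probe sets, 15.4% were called lower in amiNAA10, 9.89% in the exon 1 line and 6.82% in the exon 2 line. The matching joint shares of all probe sets were not counted, so these joint counts describe the 92 only.

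Nuclear genes of mitochondrial respiration were called in both directions, with the higher calls near the share of all probe sets. Of 53 nuclear genes of complexes I to V and cytochrome c, 8 were called higher and 5 lower in amiNAA10 (median difference 0.02), and 6 higher and 9 lower with both HYPK lines averaged (median -0.05). The 8 higher and 5 lower make up 15.1% and 9.43% of the list in amiNAA10. Over all probe sets 15.4% were called in each direction there. With both HYPK lines averaged, the 6 higher and 9 lower make up 11.3% and 17%, beside 11.2% and 11.5% of all probe sets. In complex I GAMMA CA1, a carbonic anhydrase-like subunit, fell by 0.73 in amiNAA10 (SE 0.13, adjusted p = 0.000503) and by 0.53 with both HYPK lines averaged (adjusted p = 0.00333), and FRO1, a subunit of the same complex, fell by 0.51 in amiNAA10 (adjusted p = 0.001). Among higher genes, SDH1-1, the flavoprotein subunit of succinate dehydrogenase in complex II, differed by 0.68 (SE 0.13, adjusted p = 0.000652). MPPBETA, a processing peptidase that is part of complex III in plants, differed by 0.54 (SE 0.11, adjusted p = 0.00128). Complex IV had 0 of 9 called in amiNAA10.

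Of 46 nuclear genes for mitochondrial transcription, RNA processing, RNA editing, DNA maintenance and ribosomal proteins, 8 were called higher and 2 lower in amiNAA10 (median 0.18), and 3 higher and 3 lower with both HYPK lines averaged (median -0.01). The 8 make up 17.4% of the list, near the 15.4% of all probe sets called higher in amiNAA10, and the 3 higher make up 6.52%, under the 11.2% of all probe sets with both HYPK lines averaged. PMH1, a DEAD-box RNA helicase of mitochondrial intron splicing, was 0.86 higher in amiNAA10 (SE 0.18, adjusted p = 0.00131) and differed by -0.19 with both HYPK lines averaged (adjusted p = 0.429). RIP1, an RNA editing factor of mitochondria and plastids, was 0.64 higher (SE 0.18, adjusted p = 0.0101), and RPS10, a protein of the mitochondrial ribosome, 0.74 higher (SE 0.17, adjusted p = 0.00361). All 3 were lower in the HYPK lines than in amiNAA10, by -1.04 for PMH1 (adjusted p = 0.00061), -1.002 for RIP1 (adjusted p = 0.00085) and -0.64 for RPS10 (adjusted p = 0.0127). ATWHY2, a DNA-binding protein of the mitochondrial nucleoid, was 0.65 higher in amiNAA10 (SE 0.21, adjusted p = 0.0229).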

How the data were processed

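Biotin-labelled cRNA from total leaf RNA was hybridised to Affymetrix arrays, per the labels' protocols. The sources used here do not give the array design, the genome build or whether labelling was primed at poly(A) tails or at random. The deposited values are log2 expression values, made by the authors with RMA per the submitters' processing notes. The sorted columns differ by at most 0.0019, so all arrays have one distribution and a change in total RNA cannot be seen. Arrays have no read depth, and the precision is limited by 4 arrays per genotype.

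All 16 arrays entered 1 model with a mean per genotype and no block, and 6 comparisons were tested two-sided with lmFit and eBayes of limma 3.58.1 in R 4.3.3, with Benjamini-Hochberg adjustment over all 27826 probe sets and a threshold of 0.05, without a filter. The steps were checked on simulated data. Replicate numbers are shared between genotypes, and over 24 same-numbered pairs the deviations from the genotype means correlated with r from -0.289 to 0.302 (5 pairs over 0.1). The median was -0.0059, beside -0.0172 for pairs with different numbers. With 4 arrays per genotype these values cannot decide whether equal numbers share a batch, and the labels do not say. The numbers were not used to pair samples in the main model.

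The members, the gene lists and the naming rule were chosen with earlier results of these data known. The rule named up to 10 loci with the largest rise and 10 with the largest fall in each comparison, and named nuclear list members by the smallest adjusted p. It gave array values for the 3 largest each way in each comparison, up to a limit of 12 loci, which left out ATMG01340. The part of the rule that sorts loci by the role of their gene could not be applied, because the reference does not pair ATMG codes with symbols. Partners, the split by signal and the transfer RNA group were chosen after the values were seen. Sequences were not used here. Alternatives were the replicate number as a block, only the arrays compared, limma with trend and robust options, no probe sets of the dimmest 30%, cyclic loess, centring on nuclear loci, adjustment without plastid loci, and each array left out in turn. Counts by signal and for the transfer RNA group without replicate 4 of the exon 2 line or of amiNAA10 were added after the data were seen.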

Additional observations from a re-analysis of the deposited data

Results flagged for a closer look

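Array values that stood apart from the other 3 of their genotype were looked for by the gap to the nearest array divided by the range. Of 64 groups of 4 arrays, 9 were picked out, and chance flags about 1 in 20. Replicate 4 of amiNAA10 accounts for ATMG00840 at 6.83 (nearest 7.14), ATMG01060 at 7.26 (nearest 6.75), ATMG00930 at 8.47 (nearest 7.69) and the mean of the 9 transfer RNA partner loci at 6.98 (nearest 6.51). In WT it was ATMG01060 at 7.18 in replicate 4. In the exon 1 line it was ATMG00800 at 3.76 in replicate 3, ATMG00930 at 7.22 in replicate 1 and ATMG00740 at 2.79 in replicate 4, and in the exon 2 line ATMG00520 at 10.19 in replicate 4.

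The effect differed between the HYPK lines and amiNAA10, by limma's test of that difference, for 16 of the 92 loci (17.4%), beside 10.2% of all probe sets. Of the 46 brighter members 12 (26.1%) were called in either direction, near the 27.2% of all probe sets of that signal. Of the 46 dimmer members 4 (8.70%) were called, near the 8.97% of all dimmer probe sets. The count of called loci was 4 without amiNAA10 replicate 3 and 7 without amiNAA10 replicate 2. ATMG00170 and ATMG00620 were lost under 14 of 23 alternative settings, the replicate block among them, and ATMG01100 under 8. The averaged HYPK lines were lower by -0.82 for ATMG00930, -0.67 for ATMG00840, -0.60 for ATMG01340, -0.43 for ATMG00370, -0.41 for ATMG00520 and -0.40 for ATMG01100. They were lower by -0.39 for ATMG01000, -0.37 for ATMG00620 and ATMG00170, which are 1 measurement, -0.35 for ATMG00610, -0.34 for ATMG01270, -0.32 for ATMG01020, -0.30 for ATMG00990 and -0.25 for ATMG00180. They were higher by 0.41 for ATMG01290 and 0.44 for ATMG00590.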

How the results depend on the processing

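Each count of called loci was recomputed under 23 alternatives. With the replicate number as a block the counts were 41, 29, 25, 34, 0 and 13, in the order amiNAA10, exon 1 line, exon 2 line and both HYPK lines against WT, exon 1 against exon 2, and both HYPK lines against amiNAA10; no count moved by over 1.5 times. Leaving out each array in turn gave 37 to 46, 25 to 33, 19 to 29, 30 to 39, 0 to 0 and 4 to 17 in the same order. With only the arrays compared, the exon 2 count was 15 (13 higher, 2 lower) in place of 28. Of 79 named calls, 58 held under all 23 alternatives. Under the alternatives the direction turned only for differences that were not called, each time when 1 array was left out. ATMG00930 in amiNAA10 ran from -0.26 to 0.05, and was 0.000407, 0.0353 and 0.0453 without amiNAA10 replicates 1, 2 and 3 and 0.0335 without WT replicate 3. ATMG01290 in the exon 1 line ran from -0.0116 (without WT replicate 4) to 0.142, with -0.00798 without its replicate 2. ATMG00590 in the exon 2 line ran from -0.0898 to 0.0346, with 0.0281 without its replicate 4 and 0.03 without WT replicate 4. Against amiNAA10 the HYPK lines differed by -0.098 to 0.391 for ATMG00250 and by -0.199 to 0.0277 for ATMG00740. The cause was not tested. The table carries no detection calls, so dim loci have no known floor.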
